A study of Rattus norvegicus with 19 samples.

Results

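Arc, Npas4, Bdnf, Homer1, Nptx2, Gpr3 and Pim1 are 7 genes whose transcripts are switched on by electrical and synaptic activity in neurons. They were found by symbol in a table of expression levels of 15597 rat genes, and all 7 had a row. The unit is FPKM, which counts fragments relative to transcript length and library size, so a level is already divided by transcript length and can be set against that of another gene. All 7 passed the filter for testing, an FPKM of 1 or more in at least 4 libraries, as did 11887 genes in all.

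The table holds 19 libraries of poly(A) RNA from primary ventral spinal cord cultures of embryonic day 14 rats (Sprague-Dawley). The 5 control libraries came from untreated cultures. The 5 polyP libraries came from cultures given long-chain synthetic polyphosphate, a linear chain of phosphate units, at 100 μM for 90 min. Another 4 libraries (wtSOD1-ACM) came from cultures given for 90 min a medium that mouse astrocytes expressing wild-type human SOD1 had conditioned, and 5 libraries (mutSOD1-ACM) from cultures given medium of astrocytes from mice transgenic for SOD1 G93A, a mutant superoxide dismutase that causes a familial form of amyotrophic lateral sclerosis. The astrocytes came from spinal cords of postnatal day 1 to 2 mice and had conditioned neuronal growth medium for 7 days. The untreated cultures received no conditioned medium, so the change of medium and what the astrocytes released cannot be told apart in a comparison with control. The labels speak of 4 to 5 independent cultures per condition, and for the age of the cultures the tissue entry has 7, the treatment protocol 4 and the growth protocol 7 to 9 days in vitro. The dose of conditioned medium is not given.

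Synaptic activity opens NMDA receptors and voltage-gated calcium channels, and the entering calcium acts through calmodulin-dependent kinases, calcineurin and the MAP kinase cascade on transcription factors such as CREB, MEF2 and SRF. The first genes to respond include transcription factors, Npas4 and the Egr family among them, together with Arc, whose protein acts directly at synapses. Secreted proteins and synaptic organizers such as Bdnf and Nptx2 are among the effectors of the programme.

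The libraries fell into 2 sets of 11 and 8 that cut across the treatments. Set 1 held replicates 1 to 3 of control, polyP and mutSOD1-ACM and replicates 1 to 2 of wtSOD1-ACM, and set 2 held the last 2 replicates of each group. The myelin gene Mbp ranged from 169 to 372 FPKM in set 1 and from 6.54 to 9.62 FPKM in set 2. The labels name no batch, and the sets are clusters found in the data, not groups of the study. Library depths were 0.763 to 1.35 times that of the median library, and summed FPKM were 446366 to 515541. The defining neuronal markers Tubb3 (361 to 773 FPKM) and Rbfox3 (28.0 to 43.3 FPKM) were present in every library, as was the astrocyte marker Gfap (12.9 to 45.5 FPKM). The motor neuron marker Chat was at 0.34 to 1.34 FPKM.

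In untreated cultures Nptx2 had the highest level of the 7 genes, 57.9 ± 11.2 FPKM (SD, n = 5). Arc followed with 45.3 ± 12.6 FPKM and Pim1 with 44.8 ± 6.53 FPKM, and these neighbours did not differ beyond their spread. Homer1 at 26.7 ± 4.39 FPKM and Npas4 at 26.6 ± 9.85 FPKM also lay within each other's spread. Bdnf (9.75 ± 1.77 FPKM) and Gpr3 (4.94 ± 0.700 FPKM) had the lowest levels. The mean level of Nptx2 over all libraries lay at the 85.2 percentile of the tested genes and that of Gpr3 at the 19.7 percentile.

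The effect of polyP was read against untreated cultures. Arc, Gpr3 and Pim1 were lower after polyP, and none of the 7 genes was called higher. With limma across all genes, 3 of the 7 members passed the threshold (an adjusted p under 0.05), all as falls. Of all genes tested, 31.8% were called in this comparison and 8.77% were called lower. The median log2 fold change of the 7 members was -0.26, beside 0.04 for all genes tested. In these bulk samples fewer cells of a type and less RNA per cell cannot be told apart.

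Arc (identifier 54323) encodes a cytoskeleton-associated protein that binds the endocytic machinery and removes AMPA receptors from synapses. Its levels in the 5 control libraries were 35.43, 37.80, 35.75, 55.15 and 62.39 FPKM, in the order of replicates 1 to 5. In the 5 polyP libraries they were 24.03, 23.08, 23.77, 17.81 and 20.27 FPKM. Every polyP library lay below every control library, and the 2 highest controls were those of set 2, the set that also held the 2 lowest polyP libraries. The polyP mean of 21.8 ± 2.68 FPKM was 0.481 of the control mean (log2 fold change -0.99, SE 0.148, limma adjusted p = 0.000177). The fall was -0.60 on the log2 scale within set 1 (limma adjusted p = 0.00705) and -1.58 within set 2 (0.00116). The difference between these values had an unadjusted p of 7.86e-05 and an adjusted p of 0.467 over all genes in limma, so it was not called.

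Gpr3 (266769) encodes a receptor that couples to Gs without a known ligand and keeps cyclic AMP high in neurons. Its control levels were 4.67, 4.26, 5.52, 4.41 and 5.84 FPKM. Its polyP levels were 3.04, 3.00, 3.08, 3.10 and 3.25 FPKM. The 5 polyP libraries were close to each other and all below the lowest control. The polyP mean of 3.09 ± 0.095 FPKM was 0.626 of the control mean (log2 fold change -0.53, SE 0.095, limma adjusted p = 0.000505). The log2 fold changes within the sets were -0.52 and -0.54, so for Gpr3 both sets showed a fall of the same size.

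Pim1 (24649) encodes a serine/threonine kinase whose transcription is driven by STAT factors and which is active without upstream phosphorylation. Its control levels were 36.61, 42.16, 42.38, 51.47 and 51.60 FPKM. Its polyP levels were 29.87, 30.60, 37.47, 26.27 and 31.15 FPKM. The groups overlapped in 1 place only, where polyP replicate 3 exceeded control replicate 1. The polyP mean of 31.1 ± 4.05 FPKM was 0.693 of the control mean (log2 fold change -0.51, SE 0.102, limma adjusted p = 0.00113). The fall was -0.30 in set 1 (limma adjusted p = 0.0482) and -0.83 in set 2 (0.000294), and the difference between the sets was not called (unadjusted p = 0.0050, limma adjusted p = 0.999).

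**Figure D1:**
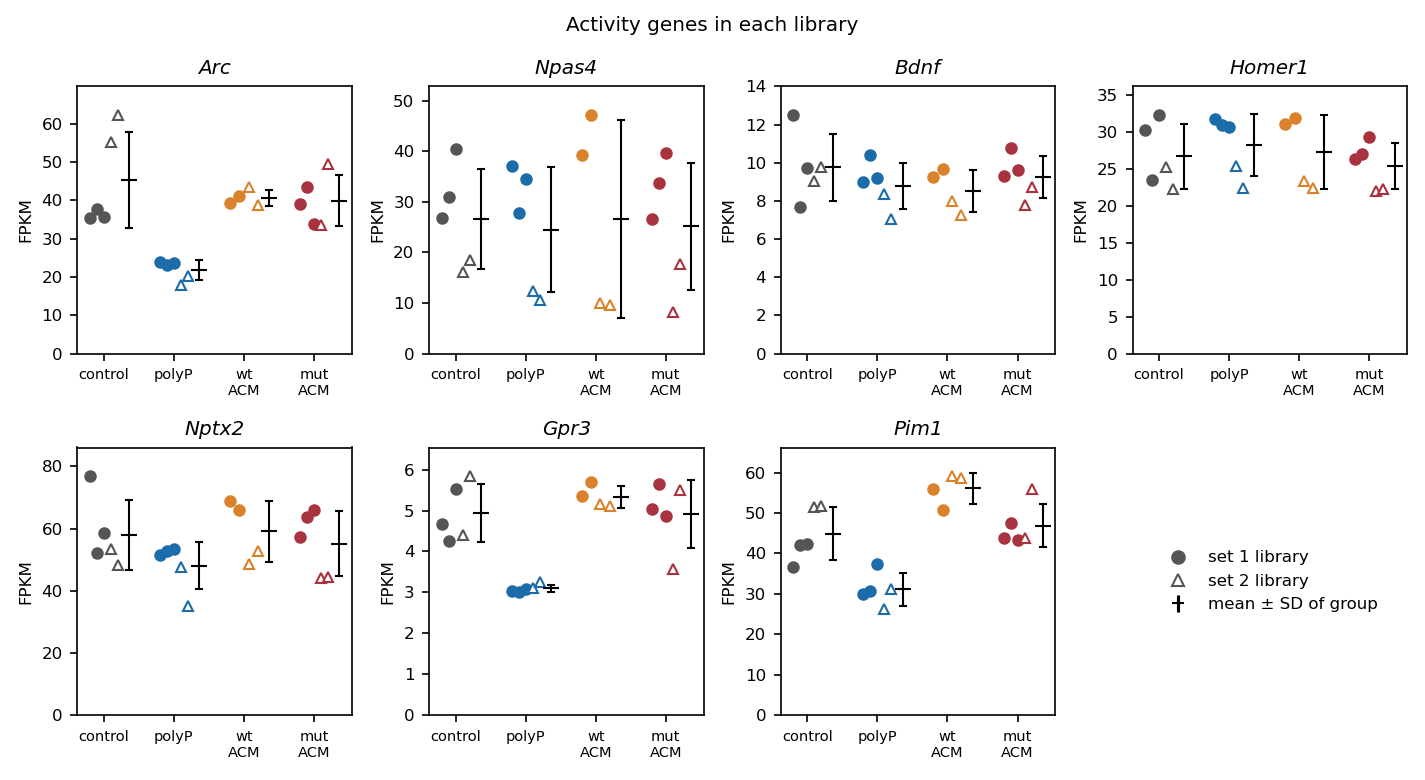
FPKM of the 7 activity genes in each of the 19 libraries by group, with filled circles for set 1, open triangles for set 2 and bars for the group mean ± SD. For Arc and Gpr3 the 5 polyP libraries lie below all others, and for Npas4 the triangles lie below the circles in every group.

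Npas4 (266734) encodes a basic helix-loop-helix PAS transcription factor that responds to calcium entry almost exclusively. Its control levels were 26.77, 30.99, 40.58, 16.19 and 18.53 FPKM. Its polyP levels were 37.21, 27.87, 34.56, 12.38 and 10.67 FPKM. The groups overlapped, with the highest library a control and the lowest a polyP library, and replicates 4 and 5 were low in both groups. The means of 24.5 ± 12.4 and 26.6 ± 9.85 FPKM gave a log2 fold change of -0.20 (95% interval -1.24 to 0.84, limma adjusted p = 0.782). A change as large as that of Arc lies inside this interval, but its width holds the difference between the sets. Within the sets the log2 fold changes were 0.03 in set 1 and -0.55 in set 2. With the set as a term in the fit, which takes the difference between the sets off the error, the limma adjusted p was 0.430.

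Bdnf (24225) encodes brain-derived neurotrophic factor, the secreted ligand of the TrkB receptor. The row covers 10 deposited transcripts, so the activity-driven transcripts cannot be told from the others. Control levels were 12.52, 7.68, 9.75, 9.04 and 9.77 FPKM, and polyP levels were 8.98, 10.38, 9.18, 8.36 and 7.07 FPKM. The groups overlapped (log2 fold change -0.13, 95% interval -0.37 to 0.11, limma adjusted p = 0.414). Within set 2 alone the 2 polyP libraries were below the 2 control libraries, with a log2 fold change of -0.26 at a limma adjusted p of 0.0496, a setting under which 5480 genes were called in place of 3779.

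Homer1 (29546) encodes a scaffold that links metabotropic glutamate receptors, Shank proteins and inositol trisphosphate receptors. Activity induces a short form of it that competes with the long scaffold, and the single deposited transcript of the row does not separate the forms. Control levels were 30.31, 23.47, 32.37, 25.30 and 22.28 FPKM, and polyP levels were 31.81, 31.02, 30.69, 25.36 and 22.42 FPKM. The groups overlapped throughout (log2 fold change 0.08, 95% interval -0.19 to 0.35, limma adjusted p = 0.674), and the sign turned when libraries were scaled to equal summed FPKM (-0.03).

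Nptx2 (288475) encodes neuronal pentraxin 2, a secreted protein that gathers AMPA receptors at excitatory synapses. Control levels were 76.86, 51.99, 58.66, 53.49 and 48.38 FPKM, and polyP levels were 51.51, 52.74, 53.58, 47.75 and 34.98 FPKM. The polyP libraries lay in the lower part of the control range and beneath it. The log2 fold change of -0.26 (95% interval -0.58 to 0.06) did not pass the test (limma adjusted p = 0.208), but it did with the set as a term (limma adjusted p = 0.0219), a setting under which 6194 genes were called in place of 3779.

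polyP libraries had higher summed FPKM than control, and the scaling between libraries moved the balance of calls over all genes. As deposited, 72.4% of the called genes were higher after polyP, against 56.5% with median-of-ratios scaling and 45.7% with equal summed FPKM. The median log2 fold change of all genes went from 0.04 as deposited to -0.06 with equal summed FPKM. With equal summed FPKM the log2 fold change was -1.10 for Arc, -0.62 for Gpr3 and -0.62 for Pim1, and with quantile normalization it was -1.03, -0.45 and -0.55. Relative to the median of all genes, Arc was at -1.03 as deposited and at -1.04 with equal summed FPKM, a pair of values that such a common shift keeps close by construction.

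**Figure D2:**
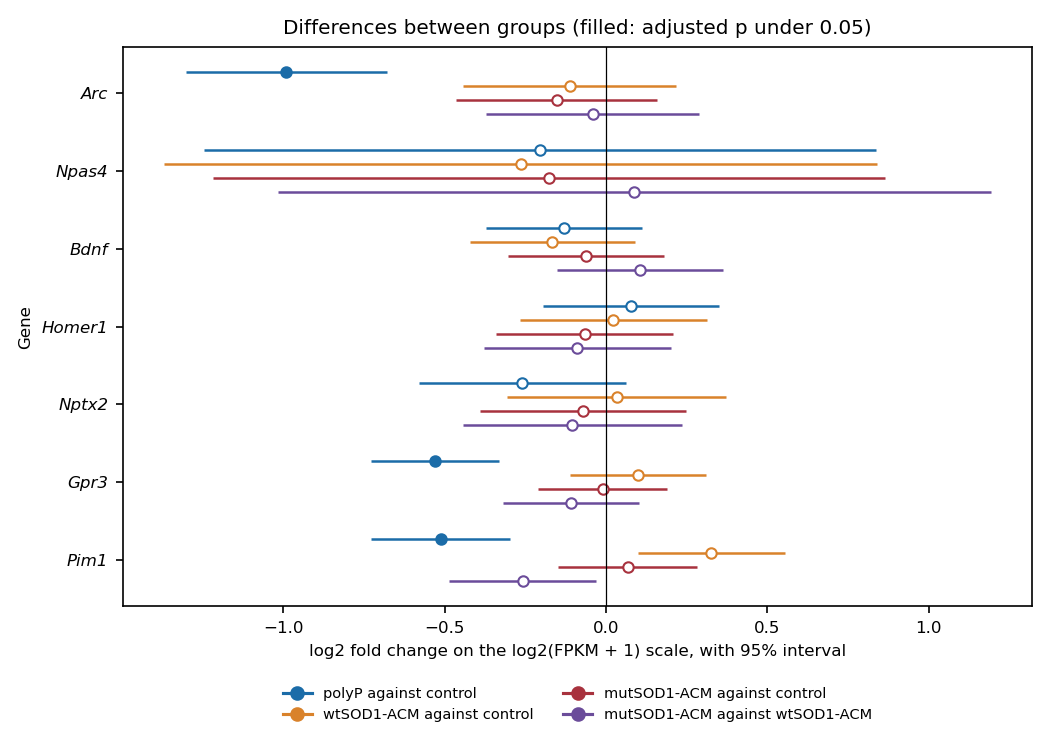
Log2 fold changes of the 7 activity genes with 95% intervals from limma for 4 comparisons, filled where the adjusted p is under 0.05. Only the polyP points of Arc (-0.99), Gpr3 (-0.53) and Pim1 (-0.51) are filled, and the intervals of Npas4 are the widest.

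Promoter windows give the sequence context of Gpr3 and Pim1, which fell after polyP, and of effectors that did not pass the test. RefSeq windows on the assembly GRCr8, from 250 bases before to 50 bases after a transcript start, were at hand for 6 of the 7 members, all but Arc, in 11 windows of which 6 belong to Bdnf. Both strands were searched for the full CRE (TGACGTCA, a CREB site), the CRE core TGACG, which the full site contains, the NPAS4 core TCGTG, the AP-1 site TGANTCA (bound by FOS and JUN), the TATA box TATAAA, the CArG box of SRF and the NF-kB site. Capitals mark every match, and a match on the other strand reads as its reverse complement (CGTCA for the CRE core). The windows shown are those with a CRE core, and that of Pim1, in which no searched motif was found. The window of Npas4 and the last of the Bdnf windows, not shown, held no searched motif either. The starts are annotated ones, and their use in these cultures was not tested. In the Pim1 window an ATG follows the annotated start within a few bases. The bases before that start may therefore be transcribed leader and not promoter.
Gpr3, chr5:150698477-150698776, minus strand: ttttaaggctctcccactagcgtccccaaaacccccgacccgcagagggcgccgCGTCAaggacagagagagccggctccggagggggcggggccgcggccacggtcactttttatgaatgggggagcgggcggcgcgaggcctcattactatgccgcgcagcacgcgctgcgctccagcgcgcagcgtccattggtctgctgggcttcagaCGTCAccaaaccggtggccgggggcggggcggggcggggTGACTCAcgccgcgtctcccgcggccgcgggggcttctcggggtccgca
Pim1, chr20:7556246-7556545, plus strand: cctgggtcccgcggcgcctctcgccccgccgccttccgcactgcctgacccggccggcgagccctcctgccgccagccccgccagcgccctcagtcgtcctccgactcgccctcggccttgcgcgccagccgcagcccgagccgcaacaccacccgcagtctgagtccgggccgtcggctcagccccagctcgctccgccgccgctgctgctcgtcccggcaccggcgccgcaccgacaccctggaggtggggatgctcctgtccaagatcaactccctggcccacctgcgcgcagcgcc
Bdnf, the fourth of its windows, chr3:116637608-116637907, plus strand: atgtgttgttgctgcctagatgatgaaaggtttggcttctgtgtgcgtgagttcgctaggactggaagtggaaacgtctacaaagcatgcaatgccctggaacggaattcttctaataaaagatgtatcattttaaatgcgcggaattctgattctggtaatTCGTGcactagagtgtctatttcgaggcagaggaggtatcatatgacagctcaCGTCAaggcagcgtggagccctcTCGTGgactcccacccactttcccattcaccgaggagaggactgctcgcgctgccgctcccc
Nptx2, chr12:15161996-15162295, minus strand: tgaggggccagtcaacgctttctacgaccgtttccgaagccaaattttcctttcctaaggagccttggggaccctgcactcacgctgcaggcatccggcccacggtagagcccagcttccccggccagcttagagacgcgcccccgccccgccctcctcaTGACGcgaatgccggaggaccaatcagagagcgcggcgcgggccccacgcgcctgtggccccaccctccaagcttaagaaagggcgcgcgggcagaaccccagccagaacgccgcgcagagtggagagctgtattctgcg
Gpr3 holds CRE cores from -196 to -192 and from -38 to -34 relative to the start, and an AP-1 site from 2 to 8. The Bdnf window holds a CRE core from -35 to -31 between NPAS4 cores from -88 to -84 and from -12 to -8. Nptx2 holds a single CRE core from -90 to -86.

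A CRE core was in 3 of the 11 windows, and 21.2% of all 33469 windows of the reference hold one. The NPAS4 core was in 4 of the 11 windows, of Bdnf and Homer1 (17.0% of all windows), and the AP-1 site in 2, of Bdnf and Gpr3 (7.33%). The TATA box was in 2 (14.2% of all windows) and the NF-kB site in 1 (4.18%). The full CRE (1.83% of all windows) and the CArG box (1.64%) were in none of the 11, which says only that these letters are not in these windows. Since the Pim1 window holds none of the searched motifs, it cannot share any with Gpr3, whatever the Gpr3 window holds.

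The second question was whether conditioned medium acted on these genes, and whether medium of mutant astrocytes differed from that of wild-type ones. None of the 7 members was called in wtSOD1-ACM against control, mutSOD1-ACM against control or mutSOD1-ACM against wtSOD1-ACM with limma. At an unadjusted p under 0.05 there was 1 member, Pim1, in the first of these, 0 in the second and 1, again Pim1, in the third. Few genes of any kind were called in these comparisons, 0.631% of those tested in the first, 0.0168% in the second and 0.471% in the third.

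Pim1 was the member that stood nearest to a call. Its levels were 56.02, 50.74, 59.10 and 58.57 FPKM in wtSOD1-ACM and 43.77, 47.56, 43.22, 43.91 and 55.95 FPKM in mutSOD1-ACM. The wtSOD1-ACM libraries were at the top of the range, with 2 control libraries (51.47 and 51.60 FPKM) and 1 mutSOD1-ACM library (55.95 FPKM) above the lowest of them. Against control the wtSOD1-ACM mean of 56.1 ± 3.82 FPKM (n = 4) was 1.25 times as high (log2 difference 0.33, 95% interval 0.10 to 0.55, unadjusted p = 0.0076, limma adjusted p = 0.512). The mutSOD1-ACM mean of 46.9 ± 5.35 FPKM (n = 5) was 0.836 of the wtSOD1-ACM mean (log2 difference -0.26, 95% interval -0.49 to -0.03, unadjusted p = 0.0286, limma adjusted p = 0.845). Against control, mutSOD1-ACM gave a log2 difference of 0.07 for Pim1 (95% interval -0.15 to 0.28). Stat3, a transcription factor of the list of partner genes, was called in both comparisons with wtSOD1-ACM, which share its libraries. It rose from 48.7 ± 1.26 FPKM in control to 65.9 ± 2.26 FPKM in wtSOD1-ACM (limma adjusted p = 2.11e-05) and was at 49.3 ± 1.68 FPKM in mutSOD1-ACM (limma adjusted p = 3.48e-05 against wtSOD1-ACM). In polyP, where Pim1 fell, Stat3 had a log2 difference of 0.04 from control and was not called (limma adjusted p = 0.540). Whether Stat3 has a part in the level of Pim1 was not tested.

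Arc was at 39.44, 41.17, 43.48 and 38.68 FPKM in wtSOD1-ACM and at 39.12, 43.49, 33.83, 33.65 and 49.51 FPKM in mutSOD1-ACM. The wtSOD1-ACM libraries lay inside the control range, and 2 mutSOD1-ACM libraries (33.83 and 33.65 FPKM) lay below the lowest control. The log2 difference from control was -0.11 for wtSOD1-ACM (95% interval -0.44 to 0.22) and -0.15 for mutSOD1-ACM (-0.46 to 0.16). Gpr3 was at 5.12 to 5.69 FPKM in wtSOD1-ACM and at 3.56 to 5.64 FPKM in mutSOD1-ACM, with log2 differences from control of 0.10 (95% interval -0.11 to 0.31) and -0.01 (-0.21 to 0.19).

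Npas4 ran from 9.64 to 47.29 FPKM in wtSOD1-ACM and from 8.17 to 39.72 FPKM in mutSOD1-ACM. Its log2 difference between the media was 0.09 with a 95% interval from -1.02 to 1.19. A 2-fold difference in either direction lies inside this interval, but its width holds the difference between the sets. Within the sets the log2 differences of Npas4 were -0.38 in set 1 and 0.28 in set 2. Bdnf ran from 7.26 to 9.65 FPKM in wtSOD1-ACM and from 7.80 to 10.76 FPKM in mutSOD1-ACM (log2 difference 0.11, 95% interval -0.15 to 0.36). Homer1 ran from 22.48 to 31.97 and from 22.06 to 29.28 FPKM (-0.09, 95% interval -0.38 to 0.20). Nptx2 ran from 48.61 to 69.02 and from 44.08 to 66.07 FPKM (-0.10, 95% interval -0.44 to 0.23). For each of these 4 genes the libraries given the 2 media overlapped.

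Set against either conditioned medium, polyP gave the same 3 called members, Arc, Gpr3 and Pim1, all lower. The 3 polyP comparisons share the polyP libraries, so they are not independent of each other. Against wtSOD1-ACM the log2 fold changes were -0.88 for Arc (limma adjusted p = 0.000682), -0.63 for Gpr3 (0.000302) and -0.84 for Pim1 (5.02e-05), where 29.3% of all genes were called and 8.32% were called lower. Against mutSOD1-ACM they were -0.84 for Arc (limma adjusted p = 0.00181), -0.52 for Gpr3 (0.00211) and -0.58 for Pim1 (0.00176), where 19.7% of all genes were called and 4.9% were called lower. In both comparisons the polyP libraries of these 3 genes lay below every library given conditioned medium. The share of all genes that separate so fully is not given here, so this is a description. Within a single set 2 of these calls were lost against mutSOD1-ACM, that of Pim1 in set 1 (log2 fold change -0.45, limma adjusted p = 0.0586) and that of Gpr3 in set 2 (-0.38, 0.0731). With the replicate number as a block, 3767 genes were called against mutSOD1-ACM in place of 2342, and the 3 members stayed called. Nptx2 was at -0.29 against wtSOD1-ACM (limma adjusted p = 0.185), and at -0.33 with the set as a term (limma adjusted p = 0.0086).

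Npas4 differed more between the sets of libraries than between treatments, whose means lay between 24.5 and 26.6 FPKM. In set 1 its level was 35.0 ± 6.58 FPKM (n = 11) and in set 2 it was 12.9 ± 4.01 FPKM (n = 8), a ratio of 2.71 with no overlap between 26.72 FPKM, the lowest library of set 1, and 18.53 FPKM, the highest of set 2. The sets were clustered from all genes, so this is a description without a test. The ratio of set 1 to set 2 was 1.30 for Nptx2, 1.28 for Homer1, 1.18 for Bdnf, 1.02 for Gpr3, 0.886 for Pim1 and 0.854 for Arc. Oligodendrocyte and microglia markers differed between the sets as well, with summed levels of 357 to 673 against 55.9 to 75.6 FPKM for 9 oligodendrocyte genes and of 80.2 to 593 against 47.5 to 64.7 FPKM for 10 microglia genes. Astrocyte markers separated too (424 to 559 against 329 to 380 FPKM for 9 genes). The summed levels of 12 neuron markers overlapped, at 1199 to 1987 FPKM in set 1 and 1726 to 2172 FPKM in set 2. Among them Tubb3 ran from 361 to 602 FPKM in set 1 and from 599 to 773 FPKM in set 2. The part of all these markers in the level of Npas4 was not tested.

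Untreated cultures also differed between the sets in Arc and Pim1. Control Pim1 was at 36.61 to 42.38 FPKM in set 1 and at 51.47 to 51.60 FPKM in set 2. Control Arc was at 35.43 to 37.80 FPKM in set 1 and at 55.15 to 62.39 FPKM in set 2, while wtSOD1-ACM libraries were at 39.44 to 41.17 and at 38.68 to 43.48 FPKM. Npas4 in wtSOD1-ACM was at 39.26 to 47.29 FPKM in set 1 and at 9.64 to 9.97 FPKM in set 2, beside controls at 26.77 to 40.58 and at 16.19 to 18.53 FPKM. Of 42 tests of a difference between the sets (7 genes in 6 comparisons), 5 had an unadjusted p under 0.05 and 0 were called by limma, and the smallest adjusted p was the 0.467 of Arc in polyP against control. The other 4 were Pim1 in polyP against control, Arc and Npas4 in wtSOD1-ACM against control, and Arc in mutSOD1-ACM against control, and all 5 share the control libraries.

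Across the 19 libraries Gpr3 and Pim1 moved most closely with Arc, and the other members less closely or not at all. After the mean of each set was taken off, Pearson's r of log2(FPKM + 1) was 0.86 between Arc and Gpr3, 0.87 between Arc and Pim1 and 0.85 between Gpr3 and Pim1. Nptx2 lay between, with an r of 0.53 with Arc, 0.60 with Gpr3 and 0.52 with Pim1. Arc had an r of 0.41 with Npas4, 0.35 with Bdnf and -0.26 with Homer1. Without this step Npas4 and Homer1 had an r of 0.83, which was 0.33 afterwards. These are descriptions over 19 libraries that share treatments, and the polyP libraries, low in Arc, Gpr3 and Pim1, weigh in all of them.

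**Figure D3:**
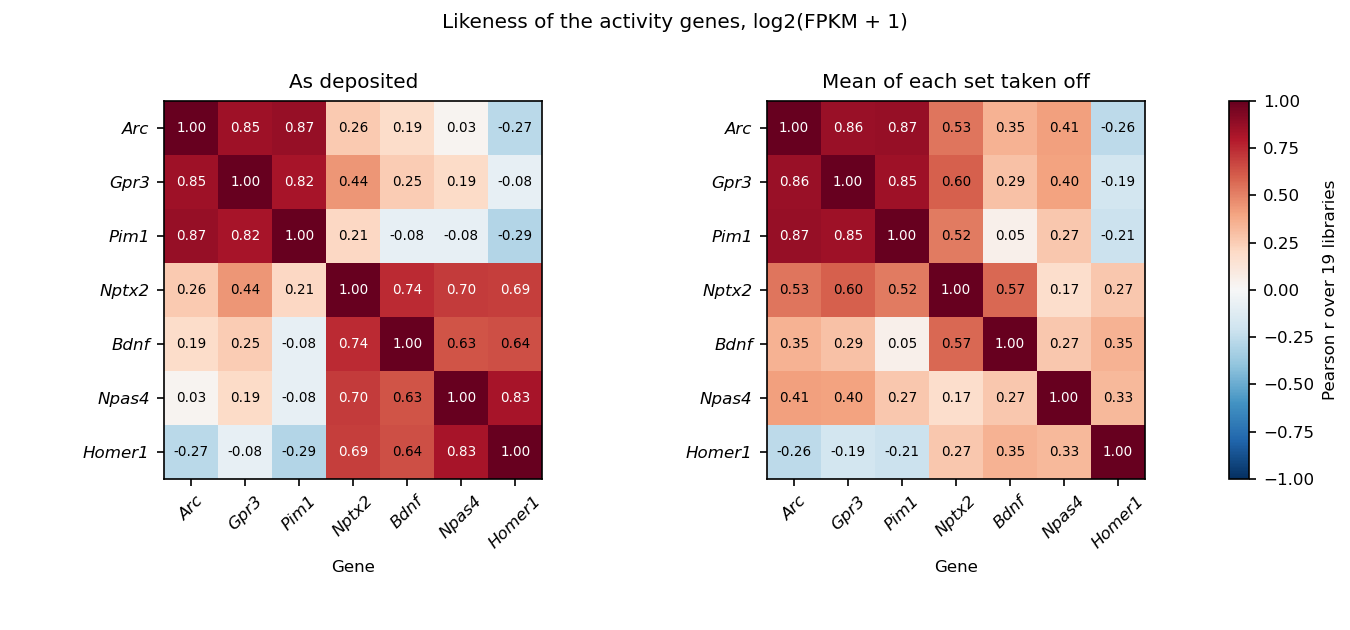
Pearson's r of log2(FPKM + 1) between the 7 activity genes over 19 libraries, as deposited (left) and after the mean of each set of libraries was taken off (right), on a colour scale from -1 to 1. Arc, Gpr3 and Pim1 form a block of 0.82 to 0.87 in both panels, and the r of Npas4 with Homer1 goes from 0.83 to 0.33.

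The genes most like each member, by the same set-centred r over 19 libraries among 11887 genes, were in part rapidly induced activity genes themselves. For Arc these were Egr1 (r = 0.97), Nab2 (0.95), a corepressor of EGR proteins, and Sgms2 (0.94), a sphingomyelin synthase. For Pim1 they were Csrnp1 (0.97), Klhl21 (0.96) and Phlda1 (0.95), and for Gpr3 Phlda1 (0.93), Ier2 (0.93) and Dusp5 (0.92), a nuclear phosphatase. These genes were picked for their likeness to members that are low in the polyP libraries, so their own falls in those libraries follow from the choice and are a description. Each of the 8 was called lower after polyP with limma, from -0.30 for Klhl21 (adjusted p = 0.00535) to -1.45 for Egr1 (adjusted p = 1.93e-05).

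Npas4 had other neighbours, Nr4a2 (r = 0.87), an orphan nuclear receptor, Flot1 (0.83), a membrane scaffold protein, and Fosb (0.80), a partner of JUN. As deposited, Nr4a2 and Fosb followed Npas4 across the sets with an r of 0.97 each, while Flot1 went the other way between the sets (-0.63). None of these 3 was called after polyP (limma adjusted p of 0.868, 0.893 and 0.766). Bdnf was most like Tac1 (0.81), the substance P precursor, Adcyap1 (0.80), the precursor of the neuropeptide PACAP, and Galnt11 (0.80). Nptx2 was most like its homologue Nptx1 (0.89), Spock2 (0.87) and Nell2 (0.87), and Homer1 was most like Map9 (0.91), Pcdh11x (0.90) and Arhgef7 (0.90).

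Lists of related genes were counted in the same fit. They were chosen with earlier results of these data known, so their counts are descriptions. Of 31 tested genes that activity induces rapidly, 10 fell after polyP and none rose, a share of 32.3% beside 31.8% of all genes called, and the list's median log2 fold change was -0.21 beside 0.04. The share of calls was thus near the background, while the share called lower was 8.77% over all genes. Egr1, a zinc-finger factor, went from 72.9 ± 16.1 to 25.9 ± 4.77 FPKM, its relative Egr2 from 22.0 ± 3.79 to 8.17 ± 1.68 FPKM and Egr3 from 12.1 ± 1.27 to 5.28 ± 1.07 FPKM (limma adjusted p of 1.93e-05, 1.93e-05 and 0.000131). Ier2, an early response gene, went from 57.1 ± 6.82 to 40.1 ± 1.90 FPKM (limma adjusted p = 0.000355). The other 6 that fell were Junb, Nr4a1, Klf6, Maff, Per1 and Csrnp1, named here to complete the count.

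Of 28 tested later effector genes 7 fell and 1 rose after polyP (median -0.20), a share called of 28.6%, below the 31.8% of all genes. Over all genes, however, 23% were called higher and 8.77% lower. Ptgs2, the inducible cyclooxygenase, went from 29.1 ± 3.63 to 9.41 ± 1.91 FPKM (limma adjusted p = 8.49e-07). Vgf, a secreted peptide precursor, went from 336 ± 38.5 to 182 ± 17.5 FPKM (limma adjusted p = 4.26e-05), and Scg2, a secretogranin, from 211 ± 23.4 to 151 ± 20.7 FPKM (limma adjusted p = 0.00169). The gene that rose was Rasl11b, a small GTPase, from 19.0 ± 2.19 to 24.3 ± 2.01 FPKM (limma adjusted p = 0.00253).

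Of 36 tested genes of calcium, CREB, MEF2 and SRF signalling 8 rose and 5 fell after polyP, with a median of 0.01 and a share called of 36.1% beside 31.8%. Both the number that rose and the sign of the median depended on scale, with 2 higher, 7 lower and a median of -0.09 under equal summed FPKM. Grin1 and Cacna1c were among those lower, and the list's other genes for calcium entry are not described here. Grin1, the obligate NMDA receptor subunit, fell from 55.4 ± 8.55 to 33.3 ± 4.15 FPKM (limma adjusted p = 0.000837), and Cacna1c, an L-type calcium channel, from 8.93 ± 1.15 to 5.79 ± 0.753 FPKM (0.00044). Ppp3r1, the regulatory subunit of calcineurin, rose from 80.4 ± 11.7 to 100.8 ± 4.06 FPKM (limma adjusted p = 0.00533).

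Of 48 tested partners of the member proteins 15 fell and 2 rose after polyP (median -0.11), a share called of 35.4%, near the 31.8% of all genes. The directions differed, since over all genes 23% were called higher and 8.77% lower. For Bdnf these included Sort1, a sorting receptor of its precursor, from 52.1 ± 4.07 to 40.8 ± 2.01 FPKM (limma adjusted p = 0.000257), and Furin, a protease that cleaves the precursor, from 31.4 ± 4.35 to 22.7 ± 2.55 FPKM (0.000849). For Gpr3 they included the adenylyl cyclases Adcy5, from 25.6 ± 1.99 to 19.3 ± 1.13 FPKM (limma adjusted p = 0.000765), and Adcy8, from 6.97 ± 0.437 to 5.37 ± 0.237 FPKM (0.000838). The 2 that rose were Gnas and Bad. Under the other 3 scalings 0 or 1 of the list rose and 14 to 18 fell.

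**Figure D4:**
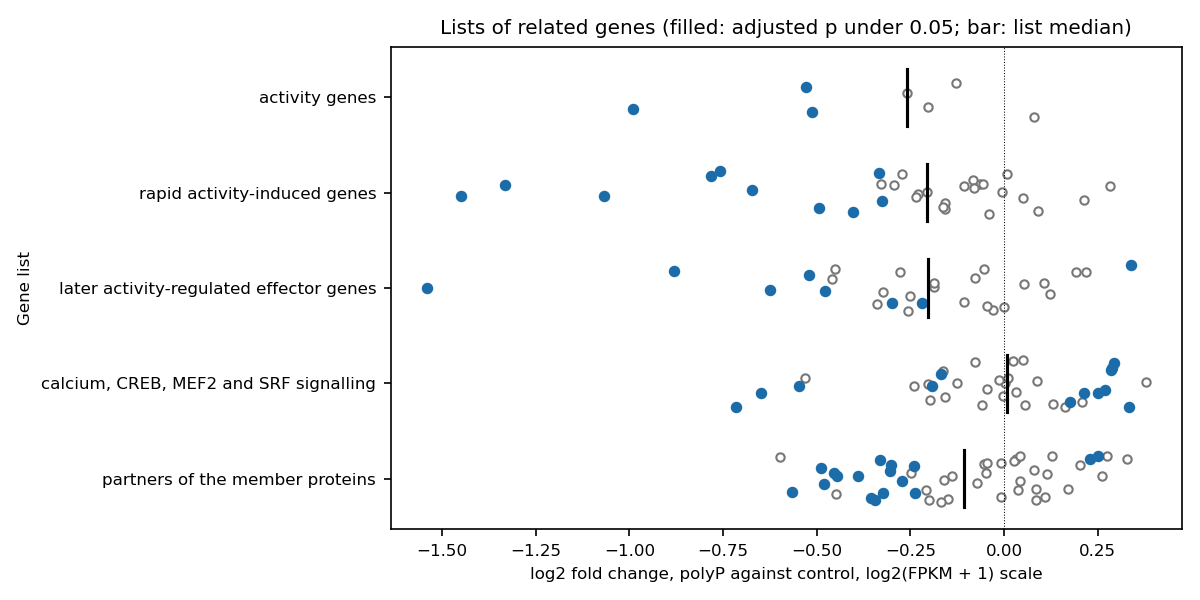
Log2 fold change of polyP against control for the 7 activity genes and the tested genes of 4 lists, 1 point per gene, filled where limma's adjusted p is under 0.05, with a bar at each list's median. The 10 filled points of the rapidly induced genes all lie left of 0, and the signalling list has filled points on both sides (8 right, 5 left).

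In the conditioned media the rapidly induced genes, a list chosen with earlier results of these data known, held some of the few calls. Against control, 3 of 31 rose with wtSOD1-ACM, beside 0.564% of all genes called higher. Of these 3, 2 were lower in mutSOD1-ACM than in wtSOD1-ACM, beside 0.463% of all genes called lower. They were the only 2 of the list called there. Both comparisons share the wtSOD1-ACM libraries, so they are not independent of each other. Gadd45b, a stress-inducible growth arrest gene, was at 41.1 ± 3.82 FPKM in control, 70.5 ± 4.99 FPKM in wtSOD1-ACM and 50.2 ± 5.83 FPKM in mutSOD1-ACM (limma adjusted p of 9.33e-05 and 0.0129 for the first and the second step). Maff, a small MAF transcription factor, was at 28.8 ± 3.07, 42.2 ± 2.66 and 28.7 ± 2.42 FPKM (limma adjusted p of 0.00058 and 0.000541). Ppp1r15a, a phosphatase subunit of the stress response, rose from 54.9 ± 4.38 to 68.3 ± 1.56 FPKM with wtSOD1-ACM (limma adjusted p = 0.0151). Pim1 had its highest mean in the same group without passing the test. Over the 4 lists Stat3 was the only other call in the 3 comparisons of conditioned media, and none of the later effectors or signalling genes was called there.

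Markers of cell types were counted beside the members in polyP against control, where 31.8% of all genes were called, 23% higher and 8.77% lower. The shares called were 8.33% of neuron, 22.2% of astrocyte, 12.5% of oligodendrocyte, 0% of microglia and 42.9% of mesenchymal and vascular markers. In polyP against control 1 of 12 neuron markers rose and none fell, with summed levels of 1199 to 1987 FPKM in control and 1681 to 2172 FPKM in polyP. Of 9 astrocyte markers 2 rose (summed levels of 329 to 559 and 362 to 480 FPKM). Of 8 tested oligodendrocyte markers 1 fell. Of 10 microglia markers 0 were called with a median of -0.69, and their summed level was 52.2 to 593 FPKM in control and 57.6 to 187 FPKM in polyP. Of 7 tested mesenchymal and vascular markers 2 fell and 1 rose (summed levels of 1213 to 1879 and 1304 to 1794 FPKM). No marker of these lists was listed at 0 in all libraries, and the part of these markers in the falls of Arc, Gpr3 and Pim1 was not tested.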

How the data were processed

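The authors deposited 1 table of FPKM with a column for each library, as its header shows. Alignment used HISAT and the rat build rn6, per the submitters' processing notes. For the tool that made the FPKM, its annotation and any scaling, the sources used here give nothing. The absolute depth is unknown. Relative depth came from 125 rarely detected genes, whose 807 values lay within 0.1 fragment of whole fragments in 95.7% of cases, a description of the fit.

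All 11887 genes with an FPKM of 1 or more in at least 4 libraries were fitted with limma 3.58.1 (R 4.3.3) on log2(FPKM + 1). A single model held all 4 groups and no other covariate, and variances were moderated by empirical Bayes with a trend and robust estimation. Two-sided p-values were adjusted by Benjamini-Hochberg over all genes tested. Fold changes of low genes such as Gpr3 are understated by the added 1. The steps were tested on simulated data. If libraries of a group were not separate cultures, the p-values would measure technical spread only.

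The text names the 7 members whatever their result, at most 4 called genes per list and comparison with the smallest p, and the 3 genes with the highest r per member. A result that this rule names is not reported here. Genes that complete a count were named after their values were seen. The members and lists were chosen with earlier results of these data known. Of 211 list entries, 203 were in the table and 196 were tested. Promoter windows are from RefSeq on GRCr8, another build than that of the table, and were used for sequence only.

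Groups share replicate numbers. In polyP against mutSOD1-ACM the deviations of same-numbered libraries correlated at 0.688 to 0.764 in all 5 pairs. The numbers may thus pair these libraries, which also follow the 2 sets. The difference between the sets was not taken off, so it enters these correlations. Such a pairing comes from the data, not from the labels.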

Additional observations from a re-analysis of the deposited data

How the results depend on the processing

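The calls of Arc, Gpr3 and Pim1 in polyP against control held under all 11 alternatives other than leaving out a library and without any 1 of the 19 libraries, with log2 fold changes without 1 library from -1.07 to -0.87 for Arc, -0.57 to -0.48 for Gpr3 and -0.58 to -0.46 for Pim1. In the other comparisons 2 single calls were lost, of Pim1 (-0.45 in set 1 only) and Gpr3 (-0.38 in set 2 only) in polyP against mutSOD1-ACM, where fewer libraries entered. A call was gained by Bdnf in polyP against control (-0.26 in set 2 only) and by Nptx2 with the set as a term (-0.26 against control and -0.33 against wtSOD1-ACM). The counts of called members stayed within 1.5 times in 205 of 205 recomputations. Those recomputations include the comparisons without polyP, in which no member was called in the main fit. In polyP against mutSOD1-ACM the count went from 3 to 2 within set 1 and within set 2. The interaction with the set was repeated under alternatives chosen after seeing the data.

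The signs that turned, 66 in all, were those of differences that were not called, and the cause was not tested. Within set 1 only, polyP against control gave 0.029 for Npas4, mutSOD1-ACM against wtSOD1-ACM -0.38 for Npas4, wtSOD1-ACM against control 0.15 for Arc and 0.40 for Npas4, and mutSOD1-ACM against control 0.086 for Arc, 0.029 for Npas4, 0.0103 for Bdnf, 0.013 for Nptx2 and 0.0903 for Gpr3. In the same set polyP gave -0.38 for Npas4 and -0.018 for Homer1 against wtSOD1-ACM and 0.00017 for Npas4 against mutSOD1-ACM. Within set 2 only, wtSOD1-ACM against control gave -0.048 for Homer1 and -0.0048 for Nptx2, and mutSOD1-ACM against control -0.055 for Pim1. With equal summed FPKM, Homer1 was at -0.031 in polyP against control, and against wtSOD1-ACM polyP gave -0.035 for Npas4, -0.054 for Bdnf and -0.043 for Homer1. Median-of-ratios scaling gave -0.0203 for Bdnf and -0.0068 for Homer1 in that comparison, and quantile normalization gave 0.028 for Gpr3 in mutSOD1-ACM against control. With the set as a term, Npas4 was at -0.052 in mutSOD1-ACM against wtSOD1-ACM and at -0.079 in polyP against wtSOD1-ACM.

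Leaving out 1 library at a time turned further signs. Npas4 ran from -0.39 to 0.038 in polyP against control, from -0.26 to 0.47 in mutSOD1-ACM against wtSOD1-ACM, from -0.65 to 0.081 in wtSOD1-ACM against control, from -0.38 to 0.16 in mutSOD1-ACM against control, from -0.28 to 0.44 in polyP against wtSOD1-ACM and from -0.36 to 0.21 in polyP against mutSOD1-ACM. Arc ran from -0.12 to 0.015 in mutSOD1-ACM against wtSOD1-ACM and from -0.19 to 0.011 in wtSOD1-ACM against control. In wtSOD1-ACM against control Homer1 ran from -0.057 to 0.11 and Nptx2 from -0.045 to 0.14. In mutSOD1-ACM against control Bdnf ran from -0.13 to 0.026, Homer1 from -0.13 to 0.0041, Nptx2 from -0.14 to 0.034, Gpr3 from -0.055 to 0.081 and Pim1 from -0.00057 to 0.12. In polyP against wtSOD1-ACM Bdnf ran from -0.029 to 0.10 and Homer1 from -0.028 to 0.14.

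With the replicate block no member's call changed, and in wtSOD1-ACM against control Homer1 was at -0.037 and Nptx2 at -0.046. Over all genes the block raised the count called in polyP against control from 3779 to 5730, in polyP against wtSOD1-ACM from 3488 to 5669, in mutSOD1-ACM against wtSOD1-ACM from 56 to 96 and in wtSOD1-ACM against control from 75 to 119. Outside polyP against mutSOD1-ACM the correlations of same-numbered libraries were uneven. In polyP against control they were 0.068 in replicate 2 and 0.508 to 0.688 in the others. In mutSOD1-ACM against control they were 0.078 in replicate 2 and 0.674 to 0.791 in the others. The lowest, -0.725, was that of replicate 3 of mutSOD1-ACM and wtSOD1-ACM, which lay in different sets. The difference between the sets was not taken off, so it enters these correlations. In polyP against control 5 of 10 libraries correlated best with their own number. FPKM carry no counts, so the counting error of low levels such as those of Gpr3 is not known.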
